A study of Homo sapiens with 8 samples.

Results

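The genes described here are regulatory lncRNAs, chosen by name from a list of 8: MALAT1, NEAT1, NORAD, TUG1, OIP5-AS1, CCAT1, PVT1 and KCNQ1OT1. Of the 8, 7 had a row in a count table of 58302 genes, and all 7 passed the filter on low counts that left 14133 genes for testing. CCAT1 has no gene under that symbol in the GENCODE 44 annotation used here and was not analysed here. The libraries came from DLD1, a colon cancer cell line, transduced with lentivirus either to overexpress wild-type TRMT6 and TRMT61A (OE-WT, 2 libraries) or with an empty vector (CTRL, 2 libraries). Both groups were stably transduced lines. The labels describe the overexpressing cells as TRMT6/TRMT61A overexpression, while the series' design text lists the 2 genes as separate groups. No group with an inactive enzyme was analysed here. Each label lists 2 lanes per library, but the table holds 1 column per library, so each library counts as 1 replicate. The series' design text says that each group was cultured in duplicate, whereas the methods of the study speak of 3 biological replicates per group, and 2 libraries a group were analysed here, so the p-values measure the spread between these libraries.

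TRMT6 and TRMT61A form the methyltransferase that writes m1A into the T-loop of tRNAs and into tRNA-like structures of some other RNAs. Long noncoding RNAs differ from mRNAs in where they reside. MALAT1 lies in nuclear speckles, NEAT1 is the scaffold of paraspeckles, KCNQ1OT1 stays at its own imprinted domain and silences genes there, and TUG1 and PVT1 are found largely or partly in the nucleus, whereas NORAD is cytoplasmic and binds Pumilio proteins, and OIP5-AS1 is found in both compartments and binds the RNA-binding protein ELAVL1. The way RNA is extracted and selected therefore bears on which of them a library can hold.

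Library totals ranged from 10327498 to 12379671 counts, and the CTRL libraries were the deeper ones. TRMT6 reached 2092 and 1841 counts with overexpression and 677 and 683 without it, which was 3.62-fold higher, and TRMT61A had 1365 and 1327 against 758 and 700, which was 2.31-fold higher (adjusted p = 8.5e-13 and 1.9e-10, edgeR quasi-likelihood test), so the overexpressed genes fit the group labels. Across all tested genes the correlation of log2 values was 0.992 within OE-WT, 0.994 within CTRL and 0.980 to 0.986 between groups. Mitochondrial genes took 29.9% to 33.5% of the counts in OE-WT and 25.1% to 27.7% in CTRL. Of the 9 colon epithelium markers, 5 were above 10 CPM (counts relative to the scaled depth of each library) in every library, among them EPCAM, CDH1, KRT8, KRT18 and CDX2, whereas the differentiation markers VIL1, LGALS4 and CEACAM5 were under 5 CPM and KRT20 had 8.36 and 9.93 CPM in OE-WT against 27.1 and 25.3 CPM in CTRL. Of the 7 markers of other cell types, 3 were at 0 in all libraries and none passed 10 CPM, with a sum of 3.24 to 4.13 CPM in OE-WT and 3.0 to 3.89 CPM in CTRL.

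The extraction protocol in the labels had cells washed with cycloheximide and lysed, kept the supernatant of the spun lysate, enriched poly(A)+ RNA on oligo(dT) beads and prepared stranded libraries. The methods of the study instead describe rRNA removal, so how these RNAs were selected is not settled by the sources used here. As a listed value, 6 of 9 nuclear RNAs without poly(A) tails, among them RN7SK, RPPH1 and RMRP, were at 0 in every library, and the highest count of the 9 was 21. A count of 0 allows up to 3 counts, or 0.233 to 0.302 CPM per library, which covers counting error only. Whether reads of such RNAs were lost in selection, alignment or counting was not tested.

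Per kilobase of merged exon (RPKM, from CPM after trimmed mean of M-values scaling), NORAD stood well above the other members, and MALAT1 and NEAT1 were close to the middle of all tested genes. NORAD had a mean of 22.6 RPKM over the 4 libraries, 5.17 times MALAT1 (4.37 RPKM) and 7.34 times NEAT1 (3.08 RPKM). The median of the 14051 tested genes with an exon length was 3.0 RPKM, and the median of the lncRNAs was 2.19 RPKM. NORAD was exceeded by 12.2% of tested genes, MALAT1 by 41.2%, NEAT1 by 49.3%, TUG1 by 57.2% and OIP5-AS1 by 58.4%. By this measure the name abundant nuclear lncRNAs does not describe MALAT1 and NEAT1, and the members are called by their names here. The level of NEAT1 divides by 22767 bases of merged exon, and its short and long isoforms were not separated. If the short isoform held most of the reads, its level per kilobase would be higher. The 7 members together took 0.0297% to 0.0325% of the counts of a library.

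**Figure D1:**
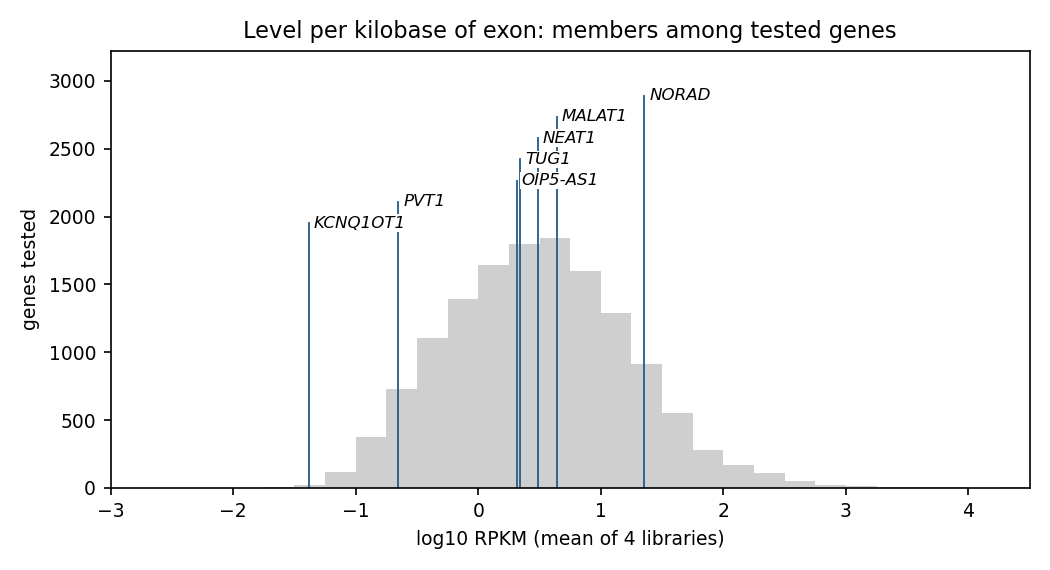
Histogram of log10 RPKM (mean of 4 libraries, x axis) for the 14051 tested genes with an exon length (y axis, genes per bin), with a vertical line for each member. NORAD lies to the right of the peak, MALAT1, NEAT1, TUG1 and OIP5-AS1 lie at the peak, and PVT1 and KCNQ1OT1 lie far to the left.

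The order of levels per kilobase of merged exon was NORAD, MALAT1, NEAT1, TUG1, OIP5-AS1, PVT1 and KCNQ1OT1. Over the libraries, MALAT1 ranged from 3.46 to 5.18 RPKM and NEAT1 from 2.88 to 3.25 RPKM, so they did not overlap by this measure. Their order rests on the 22767 bases of NEAT1, whose isoforms were not separated, and is not settled either. Before division by length, NEAT1 was the higher, with 65.6 to 74.1 CPM against 36.1 to 54.1 CPM for MALAT1. TUG1 ranged from 1.73 to 2.53 RPKM and OIP5-AS1 from 1.86 to 2.31 RPKM, so the order of this pair is not settled. PVT1 and KCNQ1OT1 were at 0.223 and 0.0412 RPKM. These 2 rest on long merged exons: PVT1 has 25431 bases of merged exon but a longest annotated transcript of 2450 bases, and its CTRL mean of 0.236 RPKM would be 2.45 RPKM by that transcript. OIP5-AS1 would be at 4.83 in place of 1.92 RPKM in CTRL in the same way, whereas MALAT1 and NORAD have 1 length under both rules.

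MALAT1 (ENSG00000251562) spans chr11:65497640-65508073 on the plus strand of GRCh38 and its annotated exons cover that whole span of 10434 bases. Its genomic 3′ region is printed because it holds 2 features of this RNA, and whether either affected these counts was not tested. The first is an encoded run of A of 13 bases, in an RNA known to end without a poly(A) tail. The second is the T-loop motif (GTTCNANNC, sense strand of merged exons) of an annotated small RNA of 57 bases, chr11:65506117-65506173. NEAT1 (ENSG00000245532, chr11:65422774-65445540, plus strand), a close neighbour of MALAT1 on the chromosome, has an end printed beside it, since the 2 ends share a U-rich run of 16 bases and an A-rich end of 11 bases, as a script found. The capitals mark these shared runs and, in MALAT1 only, the T-loop motif. The print of NEAT1 stops at its annotated end, and bases beyond that end were not searched for the motif. The sequences, read from GRCh38 in the sense direction, are
MALAT1 chr11:65506034-65506183: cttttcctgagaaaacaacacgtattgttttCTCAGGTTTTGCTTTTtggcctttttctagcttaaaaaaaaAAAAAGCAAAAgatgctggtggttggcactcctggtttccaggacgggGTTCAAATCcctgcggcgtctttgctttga
NEAT1 chr11:65445421-65445540: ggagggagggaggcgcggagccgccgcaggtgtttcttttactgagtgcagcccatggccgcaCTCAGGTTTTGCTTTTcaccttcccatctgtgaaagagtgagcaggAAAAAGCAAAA

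The small RNA that lies at the MALAT1 motif had 0 counts in every library, which allows up to 3 counts in each. In all, 15 rows for small RNAs lay in exons of members on the same strand. Of these, 14 were at 0 in every library, and the highest count was 2. How reads shared by overlapping genes were counted was not examined, so a count of 0 in such a row is no measure of level. The T-loop motif was found 2 times in MALAT1, 10 times in NEAT1, 4 times each in NORAD and OIP5-AS1, 7 times in PVT1, 8 times in KCNQ1OT1 and once in TUG1. Of all tested genes, 53.3% held at least 1 match, and 35.4% had as many matches per kilobase as MALAT1. A match describes the letters only.

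MALAT1 rose in OE-WT. Its counts were 537 and 504 in OE-WT against 465 and 524 in CTRL, which is 54.1 and 49.5 CPM against 36.1 and 42.5 CPM. In bulk libraries, more cells with an RNA and more of that RNA per cell cannot be told apart. On the CPM scale the groups did not overlap, while the raw counts did, since the CTRL libraries were deeper. The means were 51.8 ± 3.23 CPM and 39.3 ± 4.52 CPM (SD, n = 2), and the log2 fold change was 0.40 ± 0.09 (SE), or 1.32-fold with a 95% interval of 1.16 to 1.5 (adjusted p = 0.0031, edgeR quasi-likelihood test adjusted over all tested genes). The call was lost without CTRL replicate 1, with a log2 fold change of 0.28 (adjusted p = 0.060), and stayed close to the threshold with DESeq2 (adjusted p = 0.0497). With mitochondrial genes left out, whose share was higher in OE-WT, MALAT1 was at 0.39 (adjusted p = 0.0026). Its log2 fold change was 0.31 with library size only and 0.29 with a GC trend removed (adjusted p = 0.013 in both, edgeR). TALAM1, an antisense gene without a row, lies opposite 77.8% of the exon bases of MALAT1. The strand setting of the counting is not given, so reads of TALAM1 and MALAT1 cannot be told apart.

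The counts of NEAT1 were 697 and 754 with overexpression against 844 and 866 in CTRL. After scaling this was 70.2 and 74.1 CPM against 65.6 and 70.3 CPM, so the groups overlapped. The log2 fold change was 0.09 ± 0.07 (SE, adjusted p = 0.44), with an interval of 0.955-fold to 1.18-fold, and it changed sign under scaling by library size only and under removal of a GC or length trend. The table has 1 row for NEAT1, so its short and long isoforms were not separated.

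TUG1 (ENSG00000253352, chr22:30969245-30979395, plus strand), a lncRNA linked to Polycomb regulation and annotated as protein coding in GENCODE 44, rose by a similar amount. Its 250 and 261 counts in OE-WT against 226 and 253 in CTRL were 25.2 and 25.7 CPM against 17.6 and 20.5 CPM, and the groups did not overlap. Its log2 fold change was 0.42 ± 0.11 (SE), or 1.34-fold with an interval of 1.13 to 1.57 (adjusted p = 0.011). DESeq2 gave an adjusted p of 0.15 for it, and without CTRL replicate 1 the log2 fold change was 0.31 (adjusted p = 0.14). TUG1 was at 0.33 with library size only and 0.31 with a GC trend removed (adjusted p = 0.038 and 0.042, edgeR). Of its exon bases, 5.38% and 2.60% lie opposite 2 antisense lncRNA rows with 25 to 47 counts per library.

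**Figure D2:**
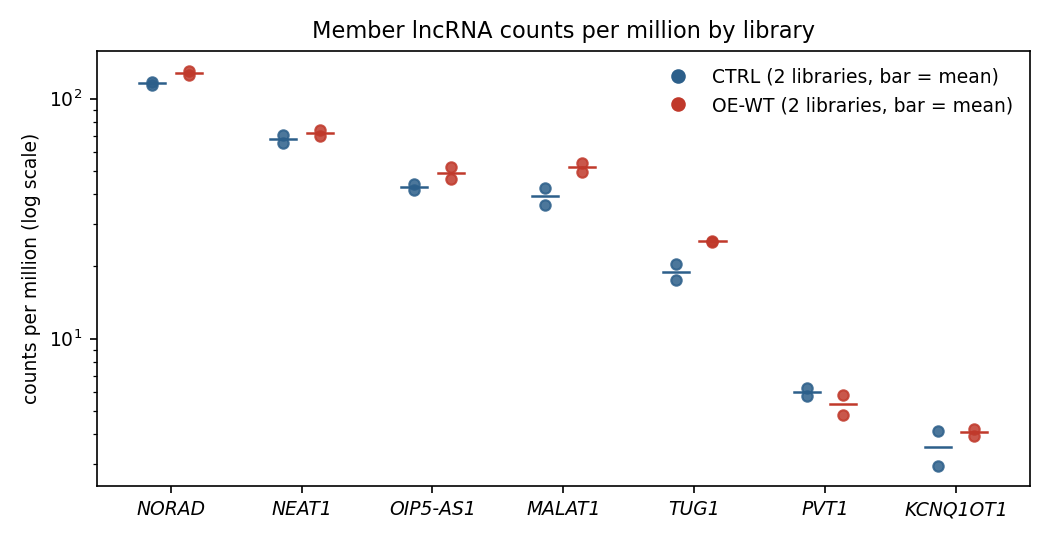
CPM (log y axis) of each member in the 4 libraries, with OE-WT in red and CTRL in blue, points for libraries and bars for group means. The OE-WT points of MALAT1, TUG1, OIP5-AS1 and NORAD lie above the CTRL points, and those of NEAT1, PVT1 and KCNQ1OT1 overlap with them.

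NORAD (ENSG00000260032, chr20:36045618-36051018, minus strand) is a cytoplasmic lncRNA of 5401 bases that sequesters Pumilio proteins. It was read for its Pumilio element, searched as TGTANATA on the sense strand of merged exons. NORAD held 15 matches, or 2.78 per kilobase, and 6 of the 14051 tested genes with an exon length, NORAD among them, had as high a rate. NEAT1 held 6 matches, TUG1 3, KCNQ1OT1 9, PVT1 2, OIP5-AS1 1 and MALAT1 0, and 36.9% of tested genes held at least 1. In NORAD, 3 pairs of elements started within 20 bases of each other. They are printed with the elements in capitals, because NORAD is known for these elements, and each is the sense strand (minus) of GRCh38.
NORAD chr20:36049491-36049531: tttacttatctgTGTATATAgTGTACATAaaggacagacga
NORAD chr20:36048294-36048334: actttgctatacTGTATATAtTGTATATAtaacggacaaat
NORAD chr20:36047658-36047698: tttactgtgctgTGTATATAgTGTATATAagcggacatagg

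Counts of NORAD were 1300 and 1272 in OE-WT against 1464 and 1452 in CTRL, or 131.0 and 125.0 CPM against 113.8 and 117.9 CPM. The groups did not overlap on the CPM scale, but the difference was small: the log2 fold change was 0.14 ± 0.07 (SE), or 1.10-fold with an interval of 1.00 to 1.22, and did not pass after adjustment (adjusted p = 0.13, unadjusted p = 0.043, edgeR quasi-likelihood test). It was 0.03 with a GC trend removed. OIP5-AS1 (ENSG00000247556, chr15:41283958-41322392, plus strand) was likewise separated by group on the CPM scale but missed the adjusted threshold. Its 513 and 472 counts in OE-WT against 568 and 513 in CTRL were 51.7 and 46.4 CPM against 44.2 and 41.6 CPM. The log2 fold change was 0.19 ± 0.08 (SE, adjusted p = 0.11, unadjusted p = 0.034), with an interval of 1.01-fold to 1.29-fold. Of its exon bases, 3.39% overlap OIP5 on the opposite strand, a gene with 181 and 170 counts in OE-WT against 262 and 281 in CTRL. The strand setting of the counting is not given in the sources used here, so reads of such overlaps cannot be told apart. On the same strand, OIP5-AS1 shares 0.872% of its exon bases with NUSAP1 and 2.29% with ENSG00000285920, which has no row. A strand setting would not separate those reads.

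PVT1 and KCNQ1OT1 were the lowest members. PVT1 (ENSG00000249859, chr8:127794526-128187101, plus strand), which lies beside MYC and hosts several miRNAs, had 58 and 49 counts in OE-WT against 74 and 77 in CTRL, or 5.84 and 4.82 CPM against 5.75 and 6.25 CPM, with a log2 fold change of -0.17 ± 0.20 (SE, adjusted p = 0.59). KCNQ1OT1 (ENSG00000269821, chr11:2597308-2700003, minus strand) had 39 and 43 counts in OE-WT against 38 and 51 in CTRL, or 3.93 and 4.23 CPM against 2.95 and 4.14 CPM, with a log2 fold change of 0.21 ± 0.25 (SE, adjusted p = 0.60). The groups overlapped for both, and the intervals of 0.664-fold to 1.19-fold for PVT1 and 0.808-fold to 1.64-fold for KCNQ1OT1 leave room for changes of either direction. KCNQ1OT1 turned to -0.02 without CTRL replicate 1.

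Together, 2 of 7 members passed an adjusted p of 0.05, both higher in OE-WT, and 0 were lower by edgeR or DESeq2. At an unadjusted p of 0.05, 4 were higher and 0 lower. The share of all tested genes at that unadjusted threshold is not given here, so this count has no background. The shares that follow are for adjusted p. Of all tested genes, 9.44% were called higher and 11.6% lower. The lncRNA genes tested had 4.83% called higher and 5.28% lower, or 86 and 94 genes. Among the 734 lncRNA genes with a mean of at least 50 counts, 62 were called higher and 72 lower. Under scaling by library size only, 23.0% of all called genes were higher in place of 44.8%. In 4 of 7 members both OE-WT libraries exceeded both CTRL libraries, against 29.9% of all tested genes. The median log2 fold change was 0.19 over the members and 0.01 over all genes. Of the 7, 6 were positive, and the share of positive values over all genes is not given here. The number positive was 4 with a length trend removed. It was 5 with library size only, with a GC trend removed and without CTRL replicate 1. With the thresholds of the study, an unadjusted p of 0.05 and an absolute log2 fold change of 1, 0 of 7 members were past them, against 3.15% of tested genes. The exact permutation test of single values cannot go below p = 0.333 with 2 libraries against 2.

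**Figure D3:**
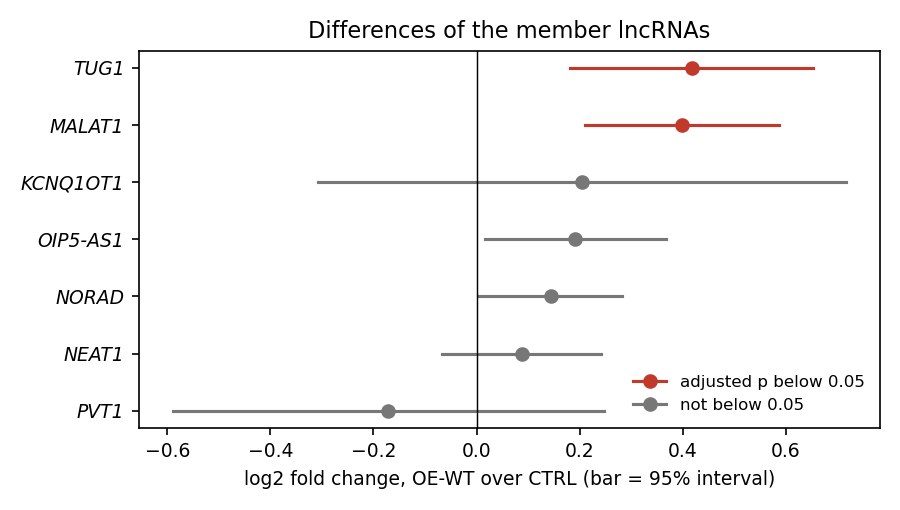
Log2 fold change of each member (points, OE-WT over CTRL, x axis) with its 95% interval from the quasi-likelihood fit (bars), in red where the adjusted p was below 0.05. The intervals of TUG1 and MALAT1 begin at 0.18 and 0.21, and those of NEAT1, PVT1 and KCNQ1OT1 cross 0.

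The lncRNAs most like NORAD in their 4-library pattern were sought by the distance between centred log2 CPM values, over 733 lncRNA genes with a mean of at least 50 counts. The 5 nearest were ENSG00000254452, WDR5B-DT, ENSG00000253200, FGD5-AS1 and ENSG00000225721, at distances of 0.02, 0.03, 0.03, 0.04 and 0.05. FGD5-AS1 had 40.7 and 38.2 CPM in OE-WT and 34.3 and 35.4 CPM in CTRL.

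Genes around the members were examined in lists of their partners and of RNAs that share or lack their nuclear residence. Each count of the main analysis stands against the 9.44% of all tested genes that rose and the 11.6% that fell. DESeq2, run without the filter on low counts, called 435 genes higher and 756 lower of 26095. Calls over all genes were also fewer with any library left out. A lower count in a list under these settings is therefore not particular to that list. Paraspeckle proteins, the binding partners of NEAT1, had the most calls: 10 of 15 tested rose, 1 fell and 4 did not pass, with a median log2 fold change of 0.31 against 0.01 over all genes. TAF15, an RNA-binding protein, rose 1.44-fold (adjusted p = 0.00016, edgeR), and PSPC1, a core paraspeckle protein, rose 1.40-fold (adjusted p = 0.0017), while DAZAP1, which also binds RNA, fell to 0.731-fold (adjusted p = 7.5e-05). Without CTRL replicate 1, 6 of the 15 rose and 1 fell, and the median was 0.22. NEAT1 itself did not pass in these libraries.

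Among the proteins of NORAD, 6 of 8 tested rose, 0 fell and the median was 0.37. They include CDC5L and PRPF19 of the Prp19 splicing complex (1.54-fold and 1.35-fold, adjusted p = 0.0067 and 7.8e-05, edgeR), RBMX, an RNA-binding protein of NORAD (1.3-fold, adjusted p = 0.00098), and the topoisomerase TOP1 (1.37-fold, adjusted p = 0.0043). Without CTRL replicate 1, 4 rose, and with DESeq2, 3 rose. Among proteins that process the MALAT1 end or bind the speckles, 6 of 14 tested rose, 0 fell and the median was 0.21. POP1 and RPP30 are subunits of RNase P, which cuts MALAT1, and rose 1.46-fold and 1.25-fold (adjusted p = 0.027 and 0.013), and SON and SRRM1, components of nuclear speckles, rose 1.22-fold and 1.2-fold (adjusted p = 0.0098 and 0.025). At an unadjusted p of 0.05, 8 were higher and 1 lower, with no share over all genes at that threshold given here. With DESeq2, 0 of the list rose. With library size only, 0 rose and 1 fell, and with OE-WT replicate 1, CTRL replicate 1 or CTRL replicate 2 left out, 2, 1 and 4 rose. Of 18 nuclear RNA decay factors tested, 3 rose, where 9.44% of all tested genes did, and 0 fell, with a median of 0.13: EXOSC2 and EXOSC3 of the RNA exosome (1.37-fold and 1.33-fold, adjusted p = 0.0011 and 0.038) and the exonuclease XRN2 (1.26-fold, adjusted p = 0.0073). EXOSC2 was called in each of the 14 alternatives, EXOSC3 in 7 and XRN2 in 11, and 1 of the 3 passed with DESeq2, without OE-WT replicate 1 or without CTRL replicate 1. Of 6 other partners tested, ELAVL1, a partner of OIP5-AS1, and EZH2, the Polycomb methyltransferase, rose 1.16-fold and 1.42-fold (adjusted p = 0.026 and 0.022), and 0 fell. Neither passed with DESeq2 or with CTRL replicate 1 or 2 left out. TALAM1, antisense to MALAT1, had no row.

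Other lncRNAs that reside in the nucleus gave 0 calls among 9 tested (edgeR), with a median of 0.21, and DESeq2 also gave 0. At an unadjusted p of 0.05, 2 were higher and 0 lower, again without a share over all genes at that threshold. Of the list, 11 of the 20 lncRNAs had too few counts to test. Among cytoplasmic lncRNAs, 1 of 11 tested rose, 3 fell and the median was -0.21. The number that fell was 6 with library size only, 6 with a GC trend removed and 5 with a length trend removed. The snoRNA hosts of the list did not all fall: SNHG5 and DANCR did not pass (log2 fold change -0.18 and 0.18, adjusted p = 0.15 and 0.098, edgeR). H19, an imprinted lncRNA, rose 1.92-fold (450 and 518 counts against 340 and 293, adjusted p = 4.8e-07, edgeR), whereas ZFAS1, SNHG1 and GAS5, hosts of snoRNAs, fell to 0.693-fold, 0.729-fold and 0.737-fold (adjusted p = 0.00028, 6.1e-05 and 8.3e-05). These 4 were called in all 14 alternatives. Of 17 mRNAs with detained introns, which stay in the nucleus until splicing is completed, 2 rose, 4 fell and the median was -0.03. MAT2A, the enzyme of S-adenosylmethionine synthesis, and HNRNPH1, a splicing regulator, rose 1.32-fold (adjusted p = 0.00030 and 0.00038), and CCNL2, a cyclin that acts in splicing, and RSRP1, a serine- and arginine-rich protein, fell to 0.733-fold and 0.670-fold (adjusted p = 0.0025 and 0.043). The other genes that fell were DDX39B, an RNA helicase of mRNA export (0.797-fold, adjusted p = 0.0079), and CLK4, a splicing kinase with 18 and 16 counts in OE-WT against 71 and 90 in CTRL (0.266-fold, adjusted p = 2.6e-05), both named after their values were seen. With DESeq2, 1 of the 4, CLK4, passed, and without CTRL replicate 1, 2 passed, CCNL2 and CLK4.

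**Figure D4:**
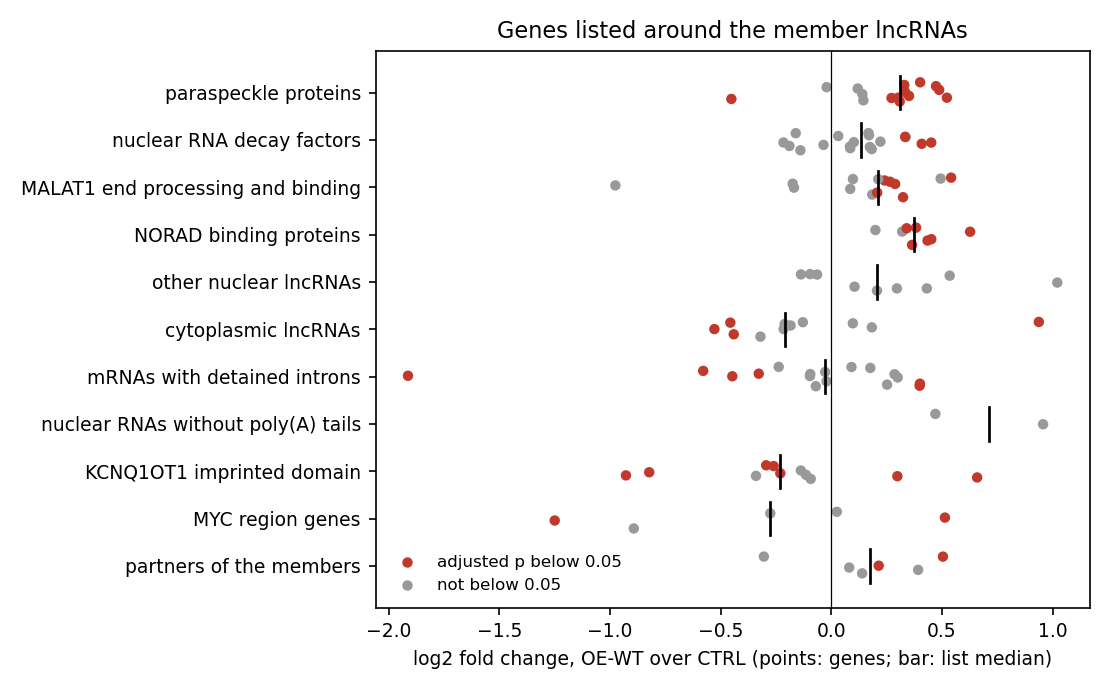
Log2 fold change (x axis, OE-WT over CTRL) of the tested genes in each list (rows), with red points for an adjusted p below 0.05, gray points for others and a black bar at the median. The paraspeckle and NORAD protein lists have medians of 0.31 and 0.37, with DAZAP1 as a red point to the left of 0 in the former, and the cytoplasmic lncRNA list has 3 red points to the left and H19 at the right.

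In a list of genes in and around the imprinted domain of KCNQ1OT1, 2 of 11 tested genes rose and 5 fell, with a median of -0.23. Whether KCNQ1OT1 regulates each of these genes was not tested. SLC22A18, a transporter of the imprinted cluster, fell to 0.526-fold, from 884 and 768 counts in CTRL to 299 and 394 in OE-WT (adjusted p = 7.5e-07, edgeR), and its antisense row SLC22A18AS fell to 0.565-fold (adjusted p = 0.0031), with the limit that reads of overlapping antisense genes cannot be told apart. ASCL2, a transcription factor of intestinal stem cells, rose 1.58-fold (adjusted p = 2.3e-05), and NAP1L4, a histone chaperone, rose 1.23-fold (adjusted p = 0.0026). KCNQ1, which KCNQ1OT1 overlaps in the antisense direction over 121 exon bases, had 206 and 222 counts against 311 and 279 in CTRL (log2 fold change -0.14, adjusted p = 0.40), and CDKN1C, an imprinted inhibitor of the cell cycle, had 110 and 132 against 162 and 166 (-0.11, adjusted p = 0.63). The other genes that fell, named after their values were seen, were PHLDA2, CARS1 and CD81, to 0.816-fold, 0.835-fold and 0.852-fold (adjusted p = 0.0027, 0.011 and 0.029). With a GC trend removed, 3 fell in place of 5 and the median was -0.04. With DESeq2, 2 fell, SLC22A18 and PHLDA2.

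In the MYC region, 1 of 5 tested genes rose and 1 fell. MYC itself had 1091 and 1190 counts against 1380 and 1426 in CTRL, with a log2 fold change of 0.03 (adjusted p = 0.84). CASC19, a lncRNA whose annotated span covers the position of CCAT1 in RefSeq, rose 1.43-fold, with 163 and 154 counts against 132 and 146 (adjusted p = 0.013, edgeR). It is its own row and is no value of CCAT1, and it did not pass without CTRL replicate 1 or without OE-WT replicate 1. CASC8, with a mean of 19 counts, fell to 0.421-fold (adjusted p = 0.018), and is named although its count is below the rule, after its values were seen. It also did not pass with either of these libraries left out, and DESeq2 called 0 genes of the region.

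Near the members, 27 genes with an end within 100 kb were tested, of which 2 fell and 0 rose, against 11.6% and 9.44% of all tested genes, so the counts are no result about the neighbours. At an unadjusted p of 0.05, 3 were lower and 3 higher, again without a share over all genes at that threshold, and DESeq2 called 2 lower and 0 higher. Both lie beside MALAT1: LTBP3, a TGF-beta binding protein, fell to 0.601-fold (adjusted p = 7.5e-06, edgeR), and EHBP1L1, a protein of membrane trafficking, to 0.736-fold (adjusted p = 0.0013). MORC2, which starts 471 bases from TUG1, had a log2 fold change of 0.14 (adjusted p = 0.43), and OIP5 one of -0.30 (adjusted p = 0.075). The number of neighbours called was 5 without OE-WT replicate 2 and 2 to 5 under the other settings.

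**Figure D5:**
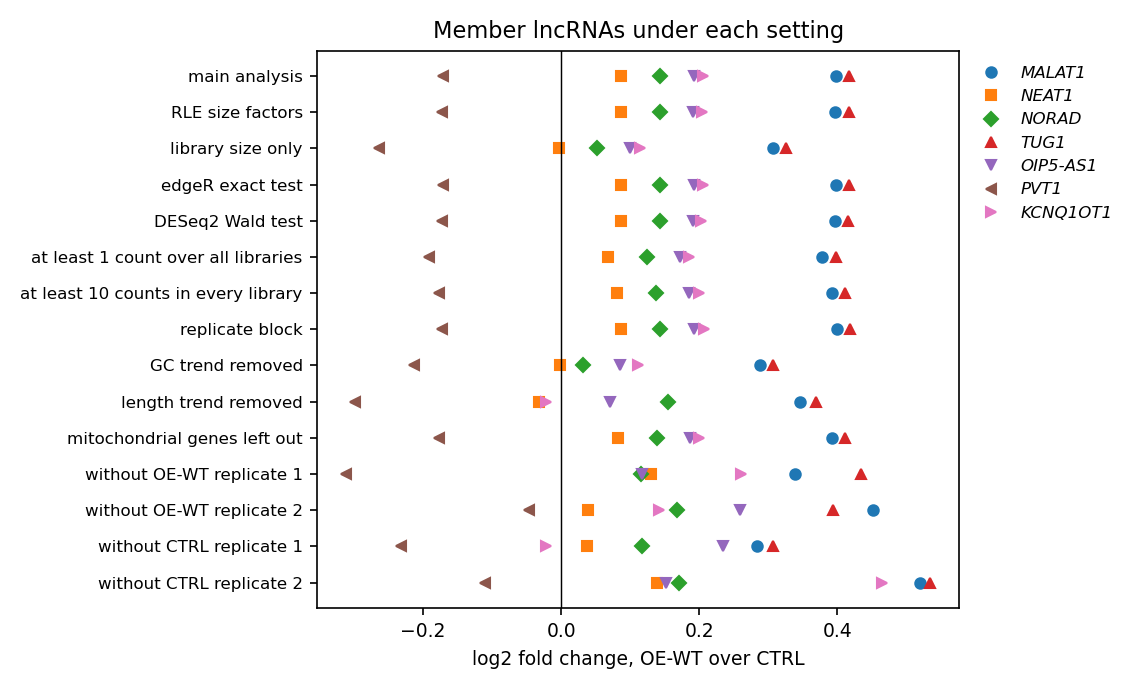
Log2 fold change of the 7 members (symbols, x axis) in the main analysis and under each of 14 other settings (rows). MALAT1 and TUG1 stayed between 0.28 and 0.53, and NEAT1 and KCNQ1OT1 crossed 0 under some settings.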

How the data were processed

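RNA was sequenced in DLD1 cells of the OE-WT and CTRL groups, with 2 libraries a group. The deposited values are whole-number read counts per Ensembl gene. The labels name HISAT2 2.2.1, featureCounts 2.0.0 and DESeq2 1.34.0 with GRCh38, while the methods of the study name HTSeq, another HISAT2 version and rRNA removal. The annotation release and strand setting are not given in the sources used here. Symbols, exon lengths and positions come from GENCODE 44, matched by identifier for 57532 of 58302 rows, and sequences from GRCh38. The table holds 0 columns of other samples.

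The counts were tested with edgeR 4.0.16 (R 4.3.3): filterByExpr on the groups (minimum count 10), trimmed mean of M-values scaling and quasi-likelihood test, adjusted over all genes by Benjamini-Hochberg. The script was tested on simulated counts. Alternatives used DESeq2 1.42.0, the edgeR exact test, other scalings and filters, a replicate block, lowess trends of GC and length (span 0.3), removal of mitochondrial genes (chosen after seeing the data) and each library left out, where the lone library is assumed to vary like the others. RPKM divides CPM by merged exon length.

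The members and lists were chosen with earlier results of these data known. Named genes were all members and, per list, up to 4 genes with an adjusted p below 0.05 and a mean of at least 50 counts, by largest change. A gene that this rule selects is not reported here.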

Additional observations from a re-analysis of the deposited data

How the results depend on the processing

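The design has 2 libraries a group, so 1 library can decide a call: when single libraries were left out, the members called ranged from 0 to 2, the lncRNA genes called from 114 to 171, the listed genes called from 27 to 45 and the neighbours called from 2 to 5, against 2, 180, 47 and 2 with all libraries. The 0 members came without CTRL replicate 1, and the cause was not tested. DESeq2 called 1 member, 48 lncRNA genes and 23 listed genes, and the cause was not tested. Over all genes it called 1191 of 26095, against 2976 of 14133 in the main analysis. The neighbours called were 5 with library size only and 5 with a GC trend removed. The log2 fold change of NEAT1 was -0.0036 with library size only, -0.0019 with a GC trend removed and -0.032 with a length trend removed. That of KCNQ1OT1 was -0.0216 with a length trend removed, -0.0222 without CTRL replicate 1 and up to 0.47 with another library left out. No member was past the study thresholds under any of the 14 alternatives. In CTRL, the level of NORAD was 22.1 RPKM by library size only, and by the longest annotated transcript TUG1, OIP5-AS1 and PVT1 were at 2.55, 4.83 and 2.45 RPKM. Same-numbered libraries did not deviate together across genes (r = -0.07). A correlation over all genes cannot exclude a batch that they share and that affects some genes. With a replicate block, 2 members, 167 lncRNA genes, 43 listed genes and 3 neighbours were called. Counts of 38 to 77 per library limit PVT1 and KCNQ1OT1 most.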
